A study of Mus musculus with 12 samples.

Results

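Cytochrome P450 enzymes of families 1 to 3 were followed in the hepatocytes of mice that carried a mammary tumour outside the liver. The members were the genes of the deposited table whose symbol names a single gene of these families (Cyp1, Cyp2 or Cyp3, a subfamily letter and a number) and whose mean normalized count over all libraries was at least 10. This gave 40 genes of the 15910 in the table. They fall into Cyp1a (1 gene), Cyp2a (4), Cyp2b (3), Cyp2c (13), Cyp2d (5), Cyp2e, Cyp2f and Cyp2g (1 each), Cyp2j (3), Cyp2r and Cyp2u (1 each) and Cyp3a (6). Another 7 symbols of the same form had a mean under 10. The members closest above that limit were Cyp2c55 (mean 20.6) and Cyp2u1 (26.7), and the genes closest below it were Cyp2d11 (8.41) and Cyp3a57 (7.54).

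All animals were female Balb/c mice, aged 8 weeks at injection. They received 4T1 cells, a mouse mammary carcinoma line, at the orthotopic site, or PBS in their place. Livers were perfused and dissociated 4 or 21 days later, and polyA RNA of the hepatocytes was sequenced. Each of the 4 groups (PBS day 4, tumour day 4, PBS day 21, tumour day 21) held 3 libraries. The design text gives 3 mice per group, and each library was taken as 1 mouse, although the letters in some replicate names of day 21 (8b, 9a, 10a, 11a, 12b) are not explained. Every p-value below rests on the spread between these libraries. In the main test that spread was estimated over all 4 groups together. No allele or drug treatment is named for any group.

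Cytochrome P450s are haem enzymes of the endoplasmic reticulum that insert an oxygen atom into their substrates with electrons passed on by the reductase Por. Families 1 to 3 handle mostly drugs, pollutants, steroids and fatty acids, and the liver is their main site. In the mouse they have multiplied into arrays of near copies, many of which differ between the sexes, between the portal and central ends of the liver lobule, or in their response to the receptors Ahr (Cyp1a), Nr1i3 (CAR, Cyp2b) and Nr1i2 (PXR, Cyp3a).

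The arrays bear on what can be read from short reads. Examples of related pairs are shown first, with their promoter windows. They are not the pairs closest in coding sequence, since Cyp2a4 and Cyp2a5 share 98.45%. Cyp2b9 and Cyp2b13 lie close together on chromosome 7 (GRCm38, plus strand, 26173411 to 26210661 and 26061497 to 26096197). Their coding sequences were 92.68% identical, and their promoter windows (RefSeq, GRCm38.p6, 250 bases before to 50 after the annotated start) differed at only 2 of 300 positions. Capitals mark those positions in chr7:26173159-26173458 and chr7:26061245-26061544, both on the plus strand.

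Cyp2b9: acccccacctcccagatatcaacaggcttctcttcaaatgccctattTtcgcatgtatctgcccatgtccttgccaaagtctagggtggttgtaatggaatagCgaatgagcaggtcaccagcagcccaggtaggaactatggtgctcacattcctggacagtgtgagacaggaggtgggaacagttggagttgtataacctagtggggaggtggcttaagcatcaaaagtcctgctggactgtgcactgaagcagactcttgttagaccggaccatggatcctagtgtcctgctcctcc
Cyp2b13: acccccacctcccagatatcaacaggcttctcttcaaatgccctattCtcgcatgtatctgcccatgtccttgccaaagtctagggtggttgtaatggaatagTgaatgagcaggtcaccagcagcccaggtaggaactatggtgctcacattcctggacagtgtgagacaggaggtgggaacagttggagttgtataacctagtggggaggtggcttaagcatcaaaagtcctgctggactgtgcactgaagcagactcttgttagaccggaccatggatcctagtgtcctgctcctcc

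Cyp2a12 and Cyp2a22 form another such pair on chromosome 7, on opposite strands (27029081 to 27037375, plus, and 26931631 to 26939384, minus). Their coding sequences were 96.96% identical and their promoter windows 84.24% identical. The letters TATAAA begin at -39 from the annotated start in Cyp2a12 and at -28 in Cyp2a22. The windows are thus offset, and unpaired bases at their ends count among the differences. These windows are shown because the pair separated most at day 21. Capitals mark each base that is mismatched or unpaired in the alignment of chr7:27028840-27029139 (plus strand) with chr7:26939337-26939636 (minus strand).

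Cyp2a12: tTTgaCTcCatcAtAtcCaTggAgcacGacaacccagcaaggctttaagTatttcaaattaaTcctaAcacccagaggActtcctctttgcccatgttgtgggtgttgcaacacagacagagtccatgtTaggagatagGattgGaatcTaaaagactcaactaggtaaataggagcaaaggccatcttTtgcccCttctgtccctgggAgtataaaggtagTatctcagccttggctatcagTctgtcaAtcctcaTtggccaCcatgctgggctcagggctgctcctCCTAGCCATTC
Cyp2a22: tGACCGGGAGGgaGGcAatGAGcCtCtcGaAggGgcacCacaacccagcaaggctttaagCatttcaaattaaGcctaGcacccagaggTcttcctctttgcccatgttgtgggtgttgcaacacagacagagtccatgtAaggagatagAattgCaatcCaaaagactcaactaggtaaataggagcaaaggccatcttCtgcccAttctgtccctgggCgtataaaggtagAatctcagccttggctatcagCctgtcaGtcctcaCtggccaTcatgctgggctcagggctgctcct

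The series' title names the hepatocyte factor HNF4a, so the 300-base promoter windows were searched on both strands for letters of HNF4 type. RefSeq gave a window for 35 of the 40 members. CAAAGTCCA stood in 7 of these 35 windows (20%), against 129 of all 27025 promoter windows (0.477%). The letters, in capitals, are shown with 20 bases on each side, all from the minus strand of GRCm38.p6 at chr19:39812831-39812879 (Cyp2c40), chr19:39649139-39649187 (Cyp2c67), chr19:39741150-39741198 (Cyp2c68), chr19:39886816-39886864 (Cyp2c69), chr19:40187322-40187370 (Cyp2c70), chr5:145879935-145879983 (Cyp3a11) and chr5:145469794-145469842 (Cyp3a16).

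Cyp2c40: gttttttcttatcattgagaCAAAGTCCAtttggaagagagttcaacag
Cyp2c67: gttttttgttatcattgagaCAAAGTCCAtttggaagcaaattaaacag
Cyp2c68: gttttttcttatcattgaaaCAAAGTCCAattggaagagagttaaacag
Cyp2c69: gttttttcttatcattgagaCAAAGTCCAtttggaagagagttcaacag
Cyp2c70: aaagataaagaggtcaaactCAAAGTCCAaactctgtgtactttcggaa
Cyp3a11: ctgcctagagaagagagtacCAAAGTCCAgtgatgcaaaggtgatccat
Cyp3a16: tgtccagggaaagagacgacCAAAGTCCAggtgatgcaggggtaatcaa

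Of the 7 members with these letters, Cyp2c40 and Cyp2c68 were lower at day 21 by the test below, and so were 11 of the 28 members whose window lacked them. The related letters CAAAGGTCA stood in 2 windows (5.71%, against 0.466% of all), those of Cyp3a25 and Cyp3a59. The letters of an HNF1 site stood in 0 of 35 windows and in 0.0629% of all. TTGCNNAA, of C/EBP type, was found in 11 windows (31.4%, against 10.8%). Of those 11 members 5 were lower at day 21, and so were 8 of the 24 without these letters. The TATA letters TATAAA were found in 22 windows (62.9%, against 14.2%). Of those 22 members 6 were lower at day 21, and so were 7 of the 13 without them. No difference between members with and without any of these letters was tested. Members share ancestry, so their windows are not independent, and a match describes letters only.

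The libraries held 9375095 to 21809166 recovered reads. Alb, the albumin transcript, made up 7.82%, 7.95% and 9.56% of the reads in tumour libraries of day 21, below the 9.80%, 12.5% and 11.1% in PBS libraries of that day, and 9.52% to 13.9% at day 4. None of 8 hepatocyte markers was called at either day (median log2 fold change -0.04 at day 21). The tumour libraries of day 21 stood apart from the rest. Their median correlation with the other libraries was 0.830 (replicate 7), 0.926 (8b) and 0.937 (9a), against 0.961 to 0.974 for the other 9. Mitochondrially encoded genes took 10.4% (replicate 7), 4.94% (8b) and 5.80% (9a) of their reads, against 5.40% to 8.42% in the other 9. None of 9 such genes was called at day 21 (median log2 fold change -0.02). Of 5 immediate-early genes 1 was called lower at day 21 (median -0.79). A list of 12 neutrophil and precursor markers was higher in the tumour group at day 21 for all 12 genes by limma, with a median log2 fold change of 10.02. Its summed normalized count ran from 85.5 to 414.1 in PBS libraries of day 21, with Retnlg and Chil3 at 0 in each, and reached 114364 (replicate 7), 45650.2 (8b) and 26028 (9a) in tumour libraries. At day 4 the sums were 337.1 to 440.9 (PBS) and 989.7 to 4074 (tumour).

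Markers of 3 other cell types were also higher in sum in these tumour libraries than in PBS libraries of day 21. The T and B cell sum was 61.5 to 399 against 3.64 to 7.71 (1 of 1 tested gene called higher), the erythroid sum 86.5 to 835.2 against 2.72 to 43.4 (0 of 3) and the cholangiocyte sum 152.7 to 327.6 against 38.4 to 56.1 (1 of 2). The cholangiocyte sum rests on Sox9 and Spp1 alone, because the listed Krt7, Krt19 and Epcam are absent from the deposited table. The Kupffer cell sum overlapped, with 2872 to 21306 against 2636 to 4115 (1 of 8 called higher, median log2 fold change 1.32), and was highest in replicate 7. None of 6 endothelial and 6 stellate cell markers was called.

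At day 21, 16 of the 40 P450 genes were lower in the hepatocytes of tumour-bearing mice, and 0 were higher. They were Cyp1a2, Cyp2a22, Cyp2b9, Cyp2b10, Cyp2b13, Cyp2c23, Cyp2c29, Cyp2c37, Cyp2c38, Cyp2c39, Cyp2c40, Cyp2c50, Cyp2c54, Cyp2c68, Cyp2f2 and Cyp2g1. All 3 Cyp2b genes and 9 of 13 Cyp2c genes were called lower, whereas no gene of Cyp2d, Cyp2j or Cyp3a passed the test. Cyp2d10, Cyp3a11 and Cyp2j5 came close to it, with limma adjusted p of 0.0544, 0.066 and 0.07. The calls of Cyp2b10 and Cyp2c40 were each lost in 11 of the 12 fits that left out 1 library. No difference between subfamilies was tested. Over the 16 genes the fall ran from 0.81 (Cyp2c39) to 3.52 (Cyp2a22) on the log2 scale. At day 4 no member was called.

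The call was an adjusted p under 0.05 in limma on log2(normalized count + 1), adjusted by the Benjamini-Hochberg method over all 12631 genes tested. By that rule 2.44% of all genes tested were lower at day 21 and 5.42% higher, against 40% and 0% of the members. Members are mostly abundant, and among the 2027 genes with a mean of at least 1000 the share lower was 6.86%, against 43.8% (14 of 32) of the members at that level. The median log2 fold change of the members was -0.88, that of all genes 0.02, and 37 of 40 members had a negative value. All 3 tumour libraries lay below all 3 PBS libraries for 23 of 40 members (57.5%), which held for 15.4% of all genes. The reverse held for 1 member, Cyp3a13, and for 17.2% of all genes.

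With edgeR 14 members were called, all lower, where 2.26% of all genes were lower and 7.02% higher. DESeq2 called 19, of which 1 was higher, where 4.62% of all genes were lower and 9.47% higher. The count fell to 10 without PBS replicate 10a, to 10 without PBS replicate 12b and to 10 without tumour replicate 7, and to 9 when only the 6 libraries of day 21 were fitted. In those 4 fits 1.33%, 0.546%, 0.649% and 1.12% of all genes were lower. The calls of 9 members (Cyp1a2, Cyp2a22, Cyp2b9, Cyp2b13, Cyp2c23, Cyp2c29, Cyp2c37, Cyp2c38 and Cyp2c50) were made in each of the 22 alternative fits run. In these bulk samples, fewer hepatocytes among the cells and less of a transcript per hepatocyte cannot be told apart. The marker sums of neutrophils and other cells given above, and the share of Alb, move with the same 3 libraries, and their part in the result was not tested.

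**Figure D1:**
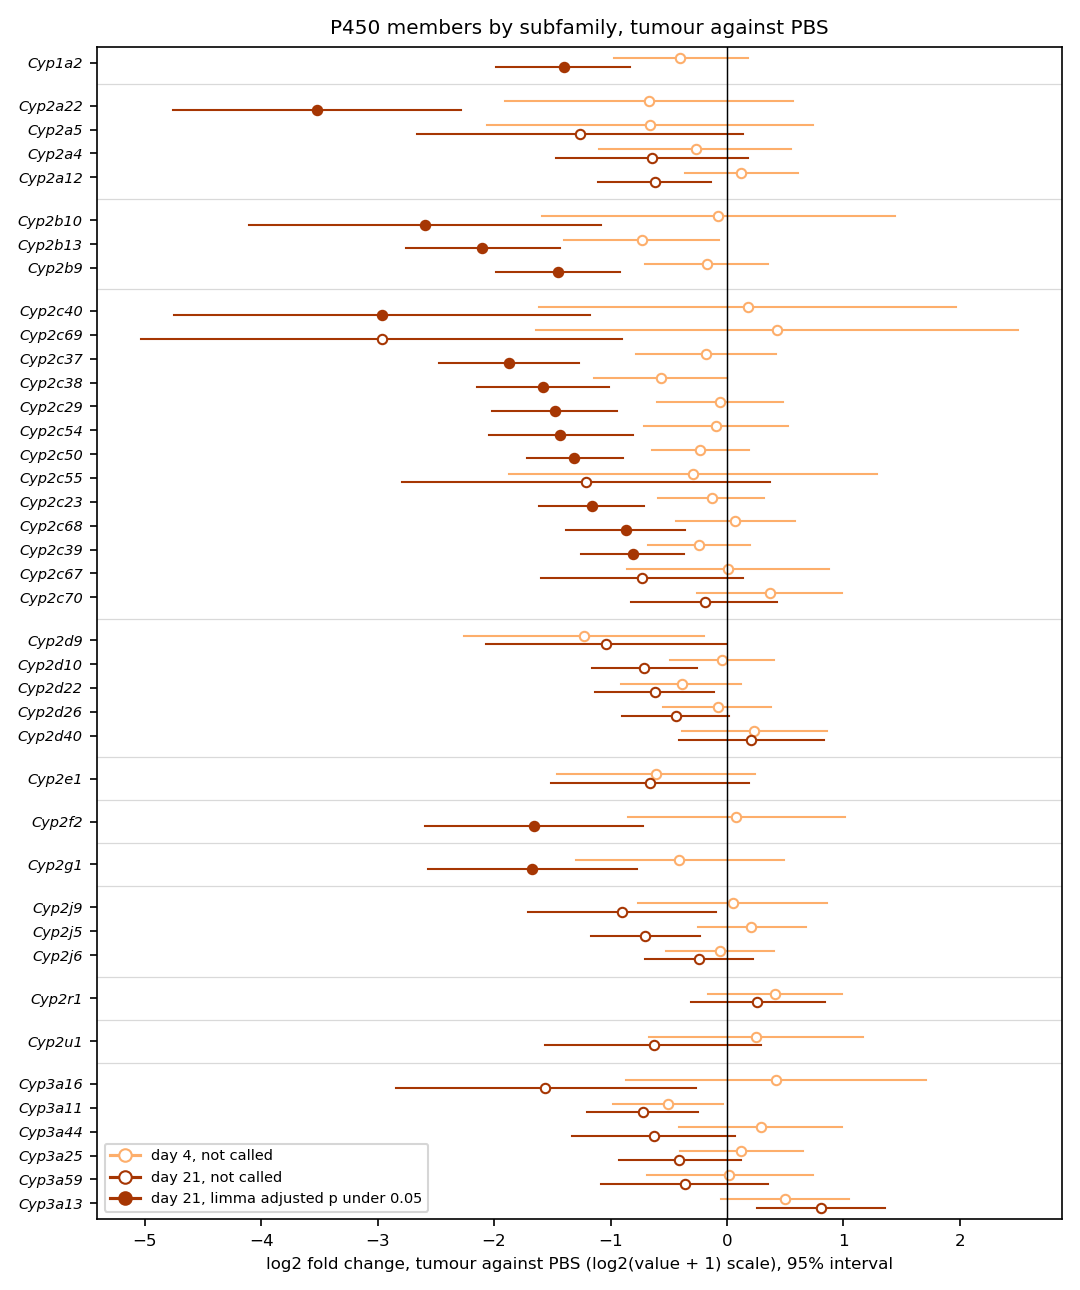
Log2 fold change of each of the 40 P450 genes, tumour against PBS, at day 4 (light) and day 21 (dark), by subfamily, with 95% intervals from limma on the log2(normalized count + 1) scale. Filled points mark the 16 genes with an adjusted p under 0.05, all at day 21 and all below 0.

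Cyp1a2, which oxidises caffeine and aromatic amines and is a target of Ahr, is encoded on chromosome 9 (57676937 to 57683703, minus strand). At day 21 its normalized counts were 12990.0, 9521 and 10042 in PBS mice and 3693, 3646.5 and 4976 in tumour-bearing mice. The groups were far apart, and each tumour library held far less than any PBS library. Cyp1a2 fell by 1.40 on the log2 scale (SE 0.26, 95% interval -1.98 to -0.83, limma adjusted p = 0.00786). At day 4 the values overlapped (9638, 12551 and 7737 in PBS, 6797, 5452 and 11025 in tumour). Its relative Cyp1a1 had too few reads for the test, with 22, 17 and 10 recovered reads in PBS libraries of day 21 and 1, 1 and 2 in tumour libraries.

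In subfamily Cyp2a, Cyp2a22 alone of 4 genes was called. Its normalized counts at day 21 were 2454, 3330, 3124 in PBS mice and 317, 89.8 and 590 in tumour-bearing mice. Every PBS library held over 4 times as much as the highest tumour library. Cyp2a22 fell by 3.52 on the log2 scale (SE 0.56, 95% interval -4.76 to -2.28, limma adjusted p = 0.00468), an 11.4-fold lower level. At day 4, PBS libraries held 2497, 2069 and 2080 and tumour libraries 1158, 941.8 and 2439. Replicates 1 and 2 of the tumour group were then below the PBS range and replicate 3 within it (log2 fold change -0.67, 95% interval -1.91 to 0.57, limma adjusted p = 0.89).

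Its near copy Cyp2a12, which hydroxylates steroids and bile acids, was singled out here after its values were seen. It measured 10776, 10299.8 and 9448 in PBS mice and 4585, 7103 and 8804 in tumour-bearing mice at day 21. The groups did not overlap, but the difference was far smaller than for Cyp2a22 and did not pass (log2 fold change -0.62, 95% interval -1.11 to -0.14, limma adjusted p = 0.112). It passed only without tumour replicate 9a, at -0.83. Of the 50-base stretches of their exons, 79.9% (Cyp2a12) and 79.8% (Cyp2a22) occur in no other annotated gene.

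Cyp2a4, a steroid hydroxylase, had the highest mean of the subfamily. At day 21 it measured 22432, 18195.5 and 15850.5 in PBS mice and 8917, 9589 and 19916.5 in tumour-bearing mice. Replicate 9a lay inside the PBS range, and the other tumour libraries lay well below it (log2 fold change -0.64, 95% interval -1.47 to 0.18, limma adjusted p = 0.345). Cyp2a5, which hydroxylates coumarin, had a log2 fold change of -1.26 (95% interval -2.66 to 0.14, limma adjusted p = 0.268). Cyp2a4 and Cyp2a5 share 98.45% of their coding sequence, and only 62.0% and 63.0% of their 50-base stretches are unique, so the split of reads between them is uncertain.

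Subfamily Cyp2b fell as a whole, and the summed normalized count of its 3 genes at day 21 was 0.33 times that of PBS mice. Cyp2b9, one of the female-predominant P450s of mouse liver, measured 9905, 10789.6 and 9721 in PBS mice and 3354, 2908 and 5209 in tumour-bearing mice. Cyp2b13, the neighbour with the near-identical promoter window, is also female-predominant and measured 4252, 3579 and 4031 against 1285, 601.9 and 1009. For both genes the highest tumour library was far below the lowest PBS library.

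The log2 fold change of Cyp2b9 was -1.45 (SE 0.24, 95% interval -1.98 to -0.92, limma adjusted p = 0.00417). That of Cyp2b13 was -2.10 (SE 0.31, 95% interval -2.76 to -1.43, limma adjusted p = 0.00201). The intervals overlap, and the difference between these genes was not tested. Of the stretches of Cyp2b13, 72.7% are unique, and of Cyp2b9 88.8%. At day 4, Cyp2b9 ran from 8574 to 14847 in PBS and from 9075 to 11966.5 in tumour libraries. Cyp2b13 then ran from 3789 to 6360.4 in PBS and from 2025 to 4295 in tumour libraries, with a log2 fold change of -0.73 (95% interval -1.40 to -0.07, limma adjusted p = 0.815).

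Cyp2b10, the classical target of Nr1i3 that phenobarbital induces, is on the same chromosome (25897620 to 25926624, plus strand). It measured 605, 2183 and 711 in PBS mice and 87.2, 84.8 and 570.2 in tumour-bearing mice at day 21. Replicates 7 and 8b were near 85, whereas 9a came close to the lower PBS libraries. Cyp2b10 fell by 2.59 on the log2 scale (SE 0.68, 95% interval -4.10 to -1.08, limma adjusted p = 0.0438). This call was lost in 11 of the 12 fits that left out 1 library, all but the fit without tumour replicate 9a, and in edgeR, in limma without trend and robust, under both other filters on low values and with only the 6 libraries of day 21. In the fits that left out 1 library the adjusted p reached 0.201, and the log2 fold change ran from -3.49 to -2.01. At day 4 both groups held 1068 to 1732.

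The Cyp2c subfamily is an array on chromosome 19, with Cyp2c23 (44005022 to 44029208, minus strand) apart from the others (39007019 to 40187333). Many of its enzymes convert arachidonic acid to epoxides and hydroxy acids. All 13 genes had a negative log2 fold change at day 21, with a median of -1.31, and the summed normalized count was 0.46 times that of PBS mice. Along the array from Cyp2c55 to Cyp2c70 the log2 fold changes were not uniform. They were -1.21 for Cyp2c55 (not called), -1.48 for Cyp2c29, -1.58 for Cyp2c38, -0.81 for Cyp2c39, -0.73 for Cyp2c67 (not called), -0.87 for Cyp2c68, -2.96 for Cyp2c40, -2.96 for Cyp2c69 (not called), -1.87 for Cyp2c37, -1.43 for Cyp2c54, -1.31 for Cyp2c50 and -0.19 for Cyp2c70 (not called).

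Cyp2c29 (39269405 to 39330713, plus strand), an arachidonic acid epoxygenase, had the highest mean count of the subfamily, uncorrected for length. At day 21 it measured 22388, 31878 and 25743 in PBS mice and 7584, 7511 and 14938 in tumour-bearing mice, without overlap. Cyp2c29 fell by 1.48 on the log2 scale (SE 0.25, 95% interval -2.02 to -0.94, limma adjusted p = 0.0042). At day 4 it ran from 27253 to 30971 in PBS and from 26138.5 to 29041 in tumour libraries, with a log2 fold change of -0.06 (95% interval -0.60 to 0.48). The day 4 groups covered nearly the same range, and all 3 tumour libraries of day 21 lay below them.

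Cyp2c37, which hydroxylates arachidonic acid, measured 13039.7, 9836 and 9770 against 2545, 2158 and 4688 at day 21. Cyp2c50 measured 12595, 10001.3 and 10200.1 against 4064, 3962 and 5242.5. Cyp2c54 measured 8668, 3707 and 6224 against 1762, 2210 and 2644. These neighbours share 95.11% to 96.13% of their coding sequence with each other, and in each the tumour libraries lay below every PBS library, by the least for Cyp2c54.

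Cyp2c37 had a log2 fold change of -1.87 (95% interval -2.47 to -1.27, limma adjusted p = 0.00203). That was -1.31 for Cyp2c50 (95% interval -1.72 to -0.89, limma adjusted p = 0.00193) and -1.43 for Cyp2c54 (95% interval -2.04 to -0.81, limma adjusted p = 0.00998). Only 69.9% (Cyp2c37), 74.3% (Cyp2c54) and 81.7% (Cyp2c50) of their 50-base stretches are unique, so reads may have been shared out or lost between them. The call of Cyp2c54 was lost when the 6 libraries of day 21 were fitted alone.

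Cyp2c38 measured 4668, 3757 and 4698 in PBS mice and 1212, 1413 and 1808 in tumour-bearing mice. Cyp2c39, a retinoic acid hydroxylase, measured 21014.5, 16286 and 19201 against 8687, 11156 and 12492. Cyp2c23, an epoxygenase all of whose 50-base stretches are unique, measured 687, 1006 and 793 against 283, 349.2 and 498. The groups of these genes did not overlap either.

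Cyp2c38 had a log2 fold change of -1.58 (95% interval -2.15 to -1.01, limma adjusted p = 0.00416), Cyp2c23 one of -1.16 (95% interval -1.61 to -0.71, limma adjusted p = 0.00616), and Cyp2c39 one of -0.81 (95% interval -1.25 to -0.37, limma adjusted p = 0.0285). The call of Cyp2c39 was lost with only the 6 libraries of day 21 and without any one of PBS replicates 10a, 11a and 12b and tumour replicates 7 and 8b, where its log2 fold change ran from -0.91 to -0.67 and its adjusted p reached 0.111.

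Cyp2c40, Cyp2c67, Cyp2c68 and Cyp2c69 have 92.26% to 97.7% of their coding sequence in common. Only 39.7% (Cyp2c40) to 56.7% (Cyp2c68) of their stretches are unique, and their single values are uncertain. At day 21 Cyp2c40, of the female-predominant group, measured 3948, 1247 and 2777 in PBS mice and 143.8, 153 and 1295 in tumour-bearing mice. Replicate 9a lay above the lowest PBS library, while replicates 7 and 8b were far lower. The log2 fold change was -2.96 (SE 0.81, 95% interval -4.75 to -1.18, limma adjusted p = 0.0497). That call was lost in 11 of the 12 fits that left out 1 library (all but the one without tumour replicate 9a, at -4.00), with an adjusted p of up to 0.223. It was also lost in edgeR, DESeq2, limma without trend and robust, both other filters on low values, upper quartile scaling and the fit of 6 libraries.

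Cyp2c69, named after its values were seen, had the same pattern, with 5495.5, 754 and 2435 against 128.4, 123.05 and 1324 (log2 fold change -2.96, 95% interval -5.03 to -0.90, limma adjusted p = 0.0829). Cyp2c68 measured 2838, 1899 and 2602 against 898, 1538 and 1661, without overlap (log2 fold change -0.87, 95% interval -1.38 to -0.36, limma adjusted p = 0.0414). The call of Cyp2c68 was lost in limma without trend and robust, with only the 6 libraries of day 21, without PBS day 4 replicate 4, without any one of the tumour libraries of day 4, without PBS replicates 10a or 12b and without tumour replicate 7, where its log2 fold change ran from -0.87 to -0.59 and its adjusted p reached 0.161. Cyp2c67 had a log2 fold change of -0.73 (limma adjusted p = 0.302).

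Cyp2c70, which makes the muricholic acids of mouse bile, is at the end of the array and all of its stretches are unique. It was named after its values were seen. It measured 8457, 17609 and 10608 in PBS mice and 7471, 13053 and 10855 in tumour-bearing mice at day 21. The groups overlapped over most of their range (log2 fold change -0.19, 95% interval -0.82 to 0.43, limma adjusted p = 0.743). The sign turned without PBS replicate 11a (0.11) or tumour replicate 7 (0.03). Cyp2c55 was near the limit of detection, with 1 to 59 recovered reads per library.

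**Figure D2:**
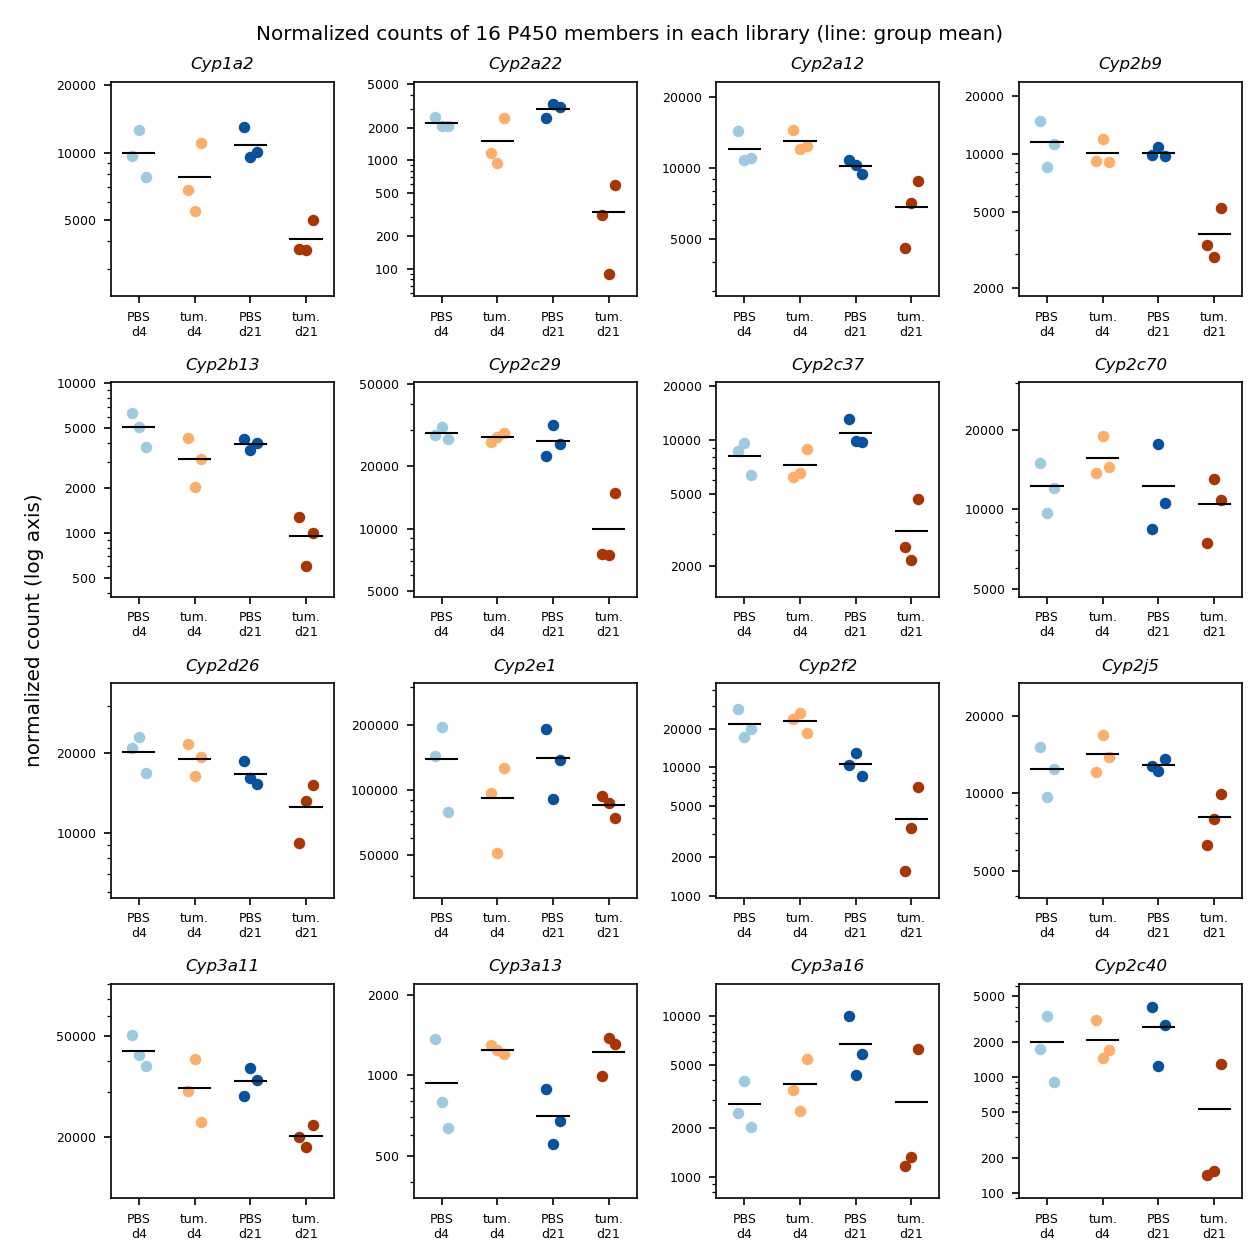
Normalized counts (log axis) of 16 P450 genes in each library of the 4 groups, with the group mean as a line. For Cyp1a2, Cyp2a22, Cyp2b9, Cyp2b13, Cyp2c29 and Cyp2c37 the 3 tumour libraries of day 21 lie below the 9 others. For Cyp2c70 tumour replicate 7 is the lowest library, and replicates 8b and 9a lie among the 9 others. For Cyp3a13 the tumour libraries of day 21 lie above the PBS libraries of day 21.

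Subfamily Cyp2d, on chromosome 15, had no called gene. Cyp2d26, the most abundant per length too, measured 18628.5, 16060.4 and 15217.5 in PBS mice and 9122.5, 13171 and 15107 in tumour-bearing mice at day 21. The groups did not overlap, but replicate 9a lay just under the lowest PBS library (log2 fold change -0.44, 95% interval -0.90 to 0.02, limma adjusted p = 0.237). Cyp2d10, Cyp2d22 and the male-predominant Cyp2d9 also had all tumour libraries below all PBS libraries, with log2 fold changes of -0.71, -0.62 and -1.04. Cyp2d10 was closest to the threshold, with a limma adjusted p of 0.0544, and was called by edgeR and DESeq2, under total scaling and without PBS replicate 6 or tumour replicate 2 of day 4. Cyp2d40 had a log2 fold change of 0.21 (limma adjusted p = 0.713), which turned negative without PBS replicate 11a (-0.03) or tumour replicate 9a (-0.05). The summed normalized count of the subfamily was 0.708 times that of PBS mice.

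Cyp2e1 oxidises ethanol and paracetamol and is concentrated around the central vein. It gave 14.8% to 43.1% of the members' reads per library. At day 21 it measured 191481, 91305 and 137536 in PBS mice and 93493, 87154 and 74375 in tumour-bearing mice. At day 4 it measured 144063, 195562 and 79496 in PBS mice and 97520.0, 51002 and 126869 in tumour-bearing mice. The groups overlapped at both days, and PBS mice alone differed more than 2-fold. The log2 fold change at day 21 was -0.66 (95% interval -1.51 to 0.19, limma adjusted p = 0.343). The day 4 value was -0.61 (95% interval -1.46 to 0.24, limma adjusted p = 0.858).

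Cyp2f2, which activates naphthalene and is found at the portal end of the lobule, lies on chromosome 7 (27119909 to 27133660, plus strand). It measured 10469, 12849.7 and 8531 in PBS mice and 1543, 3387 and 7014 in tumour-bearing mice at day 21. All tumour libraries were lower, and replicate 9a held over 4 times as much as replicate 7. Cyp2f2 fell by 1.66 on the log2 scale (SE 0.43, 95% interval -2.59 to -0.72, limma adjusted p = 0.036). The call was lost in edgeR (-1.40, adjusted p = 0.0619), in limma without trend and robust and with only the 6 libraries of day 21. It was also lost without tumour day 4 replicate 1, without PBS replicates 10a, 11a or 12b and without tumour replicates 7 or 8b, where its log2 fold change ran from -1.8 to -1.10 and its adjusted p reached 0.126.

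Cyp2f2 was also the member that was lowest in PBS mice of day 21 relative to PBS mice of day 4. The PBS mice of day 4 held 28405, 17303 and 19997 and the tumour-bearing mice of day 4 held 23877, 26541 and 18394. The log2 difference between PBS days was -1.03 (limma adjusted p = 0.938).

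Cyp2g1, known as an enzyme of the olfactory mucosa, was expressed at a low level. It measured 344, 184 and 289.7 in PBS mice and 68.7, 56.5 and 143.5 in tumour-bearing mice, without overlap. It fell by 1.67 on the log2 scale (SE 0.41, 95% interval -2.57 to -0.77, limma adjusted p = 0.0298), a call lost with only the 6 libraries of day 21, without PBS replicates 10a or 12b and without tumour replicates 7 or 8b, where its log2 fold change ran from -1.60 to -1.40 and its adjusted p reached 0.129.

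In subfamily Cyp2j, on chromosome 4, no gene was called. Cyp2j5, an epoxygenase of liver and kidney, measured 12776, 12177 and 13635 in PBS mice and 6293, 7948 and 9956 in tumour-bearing mice at day 21. The groups were separate, yet the gene did not pass (log2 fold change -0.70, 95% interval -1.17 to -0.23, limma adjusted p = 0.07). DESeq2 called it, and so did the fit without tumour replicate 9a (-0.86). Cyp2j9 and Cyp2j6 had log2 fold changes of -0.90 and -0.24. Cyp2r1, which hydroxylates vitamin D, had a log2 fold change of 0.26, and the fatty acid hydroxylase Cyp2u1 one of -0.63, and neither was called.

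Subfamily Cyp3a lies on chromosome 5. It also had no called gene, and its summed normalized count at day 21 was 0.643 times that of PBS mice. Cyp3a11, a drug and steroid hydroxylase and the standard target of Nr1i2, had the highest mean count, uncorrected for length. It measured 29024, 37415 and 33527 in PBS mice and 19879.8, 18249 and 22293 in tumour-bearing mice at day 21. All tumour libraries were lower, and the log2 fold change was -0.72 (95% interval -1.20 to -0.25, limma adjusted p = 0.066). DESeq2 called it, and so did limma under total scaling and without tumour replicate 2 or 3 of day 4. At day 4 the log2 fold change was -0.51 (95% interval -0.98 to -0.03, limma adjusted p = 0.815). The groups then overlapped, with 50306, 42228 and 37922 in PBS and 30382, 40501 and 22903 in tumour libraries.

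Cyp3a13 was named after its values were seen, as the only member with all tumour libraries above all PBS libraries at day 21. It measured 890.1, 554 and 674 in PBS mice and 994, 1377 and 1312 in tumour-bearing mice. The log2 fold change was 0.81 (95% interval 0.26 to 1.36) and did not pass (limma adjusted p = 0.0726), while DESeq2 called it, as did limma under total scaling and without PBS replicate 4 of day 4. Cyp3a13 (137892932 to 137921619) lies several megabases away from the other 5 Cyp3a genes, which stand between 145436309 and 146113287.

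Cyp3a16, a female-predominant member named after its values were seen, measured 10006, 4281 and 5800.2 in PBS mice and 1169.6, 1332 and 6268 in tumour-bearing mice. Replicate 9a lay within the PBS range and the other tumour libraries far below it (log2 fold change -1.56, 95% interval -2.84 to -0.27, limma adjusted p = 0.136). It was called without tumour replicate 9a, at -2.33. Cyp3a44, Cyp3a25 and Cyp3a59 had log2 fold changes of -0.63, -0.41 and -0.36, and the last pair shares 97.49% of its coding sequence.

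The members were also grouped by where or in which sex mouse liver is known to express them. Of 8 female-predominant members 4 were lower at day 21, with a median log2 fold change of -1.83 over the 8. Called were Cyp2b9, Cyp2b13, Cyp2b10 and Cyp2c40, and not called were Cyp2a4, Cyp2c69, Cyp3a16 and Cyp3a44. The calls of Cyp2b10 and Cyp2c40 were each lost in 11 of the 12 fits that left out 1 library. Neither of 2 male-predominant members, Cyp2d9 and Cyp2u1, was called (median -0.84). Of 8 pericentral members 5 were lower (median -1.36), and so was the periportal Cyp2f2 (-1.66). These counts stand beside 16 of 40 for all members, and no test between the groups was made.

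At day 4, 0 of 40 members were called in limma, edgeR and DESeq2 alike, and by limma 0% of all genes tested were lower and 0% higher. Over all genes edgeR also called 0%, and DESeq2 called 0.00792% higher. The lowest adjusted p was 0.815, and 4 members had an unadjusted p under 0.05, against 6.02% of all genes. These, none of which passed, were Cyp2b13 (log2 fold change -0.73), Cyp2c38 (-0.57), Cyp2d9 (-1.23) and Cyp3a11 (-0.51). The median over the members was -0.07, and 23 of 40 values were negative, against 54.5% over all genes. In no member did the groups separate in either direction, against 4.24% (below) and 4.53% (above) of all genes.

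Whether the tumour effect differed between the days was tested directly. In limma 0 of 40 members passed, against 0.0475% (lower) and 0.641% (higher) of all genes, although 38 of 40 differences were negative, with a median of -0.91. An unadjusted p under 0.05 was found for 19 members and for 13.3% of all genes. Cyp2c37 had the lowest adjusted p, 0.0748, with a difference of -1.69 (SE 0.39, 95% interval -2.54 to -0.84). Next came Cyp2c29, at -1.41 with a limma adjusted p of 0.0984. EdgeR called 0 members, and DESeq2 called 6 (Cyp2a22, Cyp2b9, Cyp2c29, Cyp2c37, Cyp2c50 and Cyp2c54), all lower, where it called 0.563% of all genes lower and 3.23% higher. Without tumour day 21 replicate 9a limma called 9 members, all lower, and 0.428% of all genes lower and 0.942% higher. For Cyp2e1, Cyp3a11 and Cyp2d9 the differences were small, at -0.05 (95% interval -1.26 to 1.15), -0.22 (95% interval -0.89 to 0.46) and 0.19 (95% interval -1.27 to 1.65).

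Between PBS mice of day 21 and day 4, 0 of 40 members were called by limma (0% of all genes in either direction), 1 had an unadjusted p under 0.05 (3.99% of all genes), and edgeR and DESeq2 called 0 (0% and 0.0396% of all genes). The median log2 difference was -0.10, from -1.03 (Cyp2f2) to 1.21 (Cyp3a16).

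**Figure D3:**
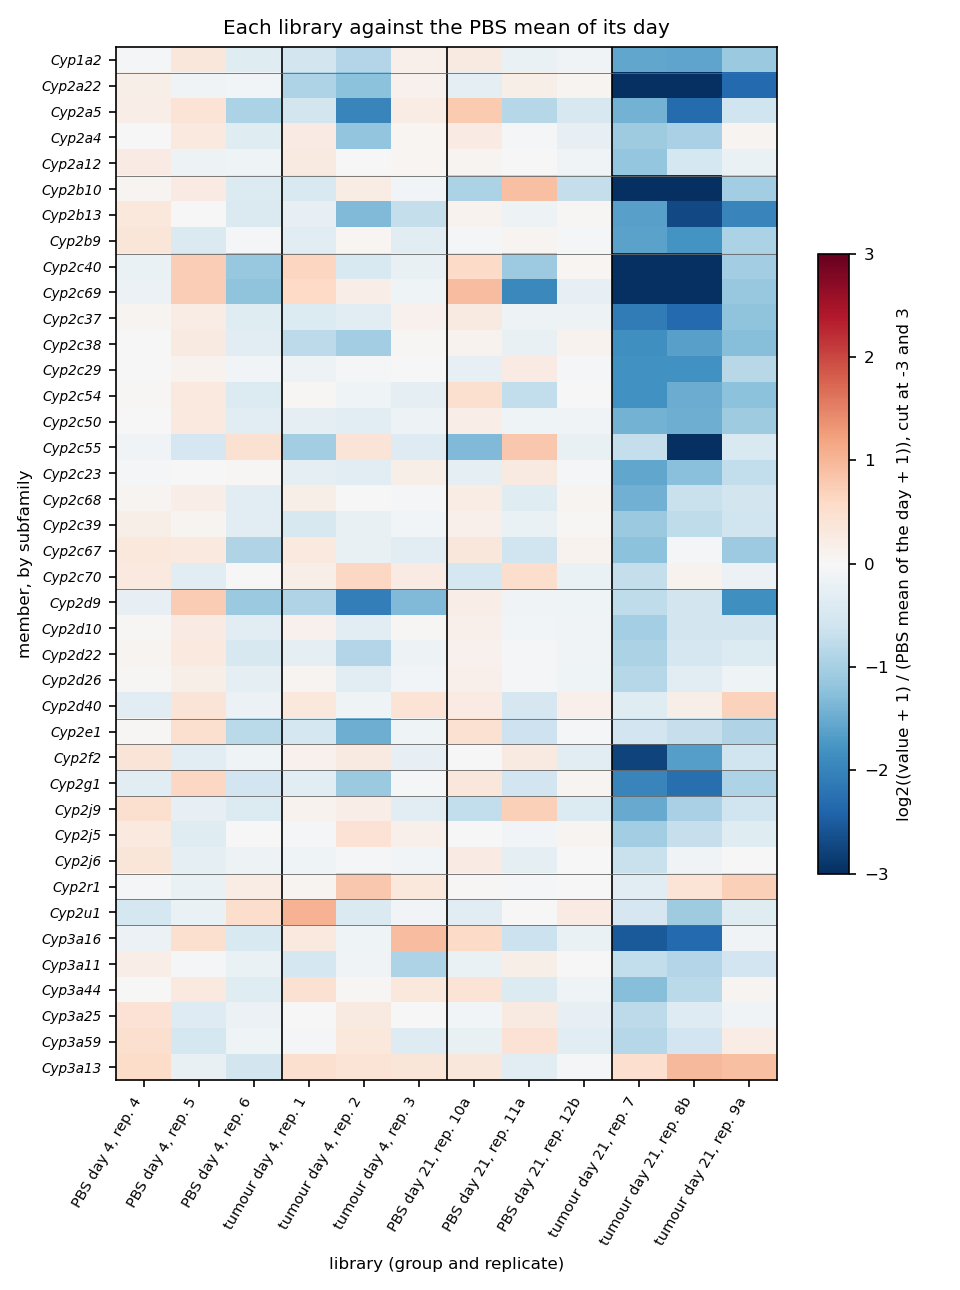
Each of the 40 P450 genes (rows, by subfamily) in each of the 12 libraries (columns), as log2 of (normalized count + 1) over the PBS mean of the same day + 1, with colours cut at -3 and 3. Tumour libraries 7 and 8b of day 21 are darkest in Cyp2a22, Cyp2b10, Cyp2c40 and Cyp2c69, and library 9a is paler in most rows.

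Over the members, the tumour-bearing mice of day 21 differed among themselves more than the other groups. The median coefficient of variation over the members was 31.5% in that group, against 19.3% in PBS mice of day 21, 24.8% in PBS mice of day 4 and 21.7% in tumour-bearing mice of day 4. Cyp2c69 had the highest, at 132% in tumour-bearing and 83% in PBS mice of day 21. Replicate 9a was the highest of the 3 tumour libraries for 33 of 40 members, replicate 7 the lowest for 24 and replicate 8b the lowest for 14. The neutrophil marker sum was highest in replicate 7 and lowest in 9a, and its part in this order was not tested. Among PBS mice of day 21, replicate 10a was the highest for 25 members and 11a the lowest for 20. These orders and the spreads above were taken over the members only, not over all genes.

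Together the 40 genes took 3.41%, 2.48% and 2.82% of the reads of PBS mice at day 21 and 1.59%, 1.5% and 1.87% of those of tumour-bearing mice. The shares at day 4 were 2.74%, 3.15% and 2.36% in PBS and 2.43%, 2.09% and 2.79% in tumour-bearing mice. Only the tumour libraries of day 21 lay under 2%. The summed normalized count at day 21 was 0.56 times that of PBS mice, and 0.538 times without Cyp2e1. At day 4 these sums stood at 0.84 and 0.916 times. A sum is led by its most abundant genes and was not tested.

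**Figure D4:**
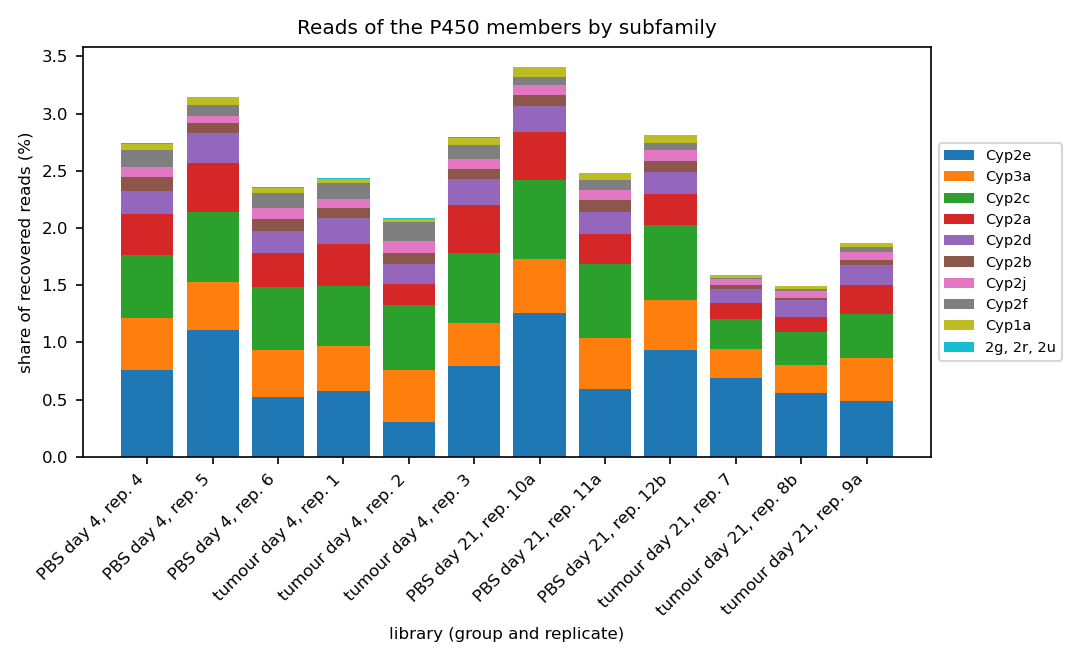
Share of each library's recovered reads (percent, stacked bars from 0) that fell on the 40 P450 genes, by subfamily. The 3 tumour libraries of day 21 reach 1.5% to 1.87%, and the 9 others 2.09% to 3.41%.

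Set per kilobase of exon, Cyp2e1 had by far the highest level in PBS mice of day 21, with a normalized count of 64925 per kilobase. Cyp2a4 (10832 per kilobase), Cyp2c39 (10365), Cyp2d26 (9283) and Cyp2c29 (8713) followed, and the ranges of these 4 genes over the mice overlapped. Length here counts all annotated exons of a gene, 5093 bases for Cyp3a11, so the order after Cyp2e1 depends on the annotation. The value of Cyp2a4 also depends on the uncertain split of reads with Cyp2a5. Cyp2u1 (6.24) and Cyp2c55 (11.7) were the lowest. In tumour-bearing mice of day 21 the level of Cyp2e1 was 39392 per kilobase, and those of Cyp2a4, Cyp2c39, Cyp2d26 and Cyp2c29 were 7369, 5932, 6957 and 3270.5.

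The genes that serve these enzymes were followed as a list of 44, of which 43 were tested. It holds electron donors, haem synthesis and breakdown, and known regulators of P450 genes. At day 21 limma called 0 of 43 in either direction, edgeR called 0, and 11 had an unadjusted p under 0.05, as did 23% of all genes. The median log2 fold change was -0.09, against -0.88 for the P450 genes, and the lowest adjusted p was 0.0598 (Cyb5b, a cytochrome b5 of the outer mitochondrial membrane, -0.80). DESeq2 called 5 genes, Cyb5b, Alad, Ppox and Pgrmc1 lower and Hmox1 higher, while it called 14.1% of all genes, so this count does not set the list apart. All 3 tumour libraries of day 21 lay below all 3 PBS libraries for 14 of the 43 (32.6%), against 15.4% of all genes. The reverse held for 4 of the 43, against 17.2% of all genes. Among the 7 electron donors tested, 4 lay below and 2 above. These counts were not tested. At day 4 limma called 0 of 43, with 3 at an unadjusted p under 0.05, as were 6.02% of all genes.

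Por, the electron donor of all microsomal P450s, measured 14517, 3415 and 5566 in PBS mice and 6835, 6335 and 12379.5 in tumour-bearing mice at day 21. The groups overlapped widely (log2 fold change 0.32, 95% interval -1.27 to 1.90, limma adjusted p = 0.835). Alas1, which starts haem synthesis, measured 19162, 2805 and 7931 against 18667, 17434 and 20276. Its tumour libraries were close together and its PBS libraries were not (log2 fold change 1.32, 95% interval -0.32 to 2.96, limma adjusted p = 0.326). Hmox1, which breaks haem down, measured 207, 186 and 163 against 954, 279 and 401. The groups of Hmox1 did not overlap, and it did not pass in limma (log2 fold change 1.36, 95% interval 0.28 to 2.44, limma adjusted p = 0.121).

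Among the regulators, Hnf4a measured 10208, 8752 and 10809.5 in PBS mice and 8304, 10971 and 11284 in tumour-bearing mice at day 21. The groups overlapped, with a log2 fold change of 0.03 (95% interval -0.35 to 0.41, limma adjusted p = 0.937). The log2 fold changes of the xenobiotic receptors were -0.14 for Nr1i2 (95% interval -0.84 to 0.56), -0.42 for Nr1i3 (95% interval -1.51 to 0.67) and -0.04 for Ahr (95% interval -0.71 to 0.63). None of these was called, and the width of the intervals leaves room for a change of transcript level of the size seen in Cyp2c39 for Nr1i2 and Nr1i3. These are transcript levels and say nothing of the proteins.

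Of the genes of the same families left out by the naming rule, none of those tested was called. At day 21 the log2 fold change was -0.92 for Cyp3a41a (limma adjusted p = 0.378) and -2.06 for Cyp3a41b (limma adjusted p = 0.197), both near copies. The tested pseudogenes ran from -0.70 (Cyp2a21-ps) to 0.85 (Cyp2d41-ps).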

How the data were processed

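PolyA RNA of dissociated hepatocytes was sequenced in 12 libraries, 3 for each of 4 groups, assigned by treatment and time per the labels. Per the submitters' processing notes, cutadapt, STAR 2.4.2a, HTSeq and DESeq2 were used with GRCm38. The annotation and strand setting used by the authors are not given in the sources at hand. The deposited table holds counts per gene that the authors scaled by 1 size factor per library, a signal uncorrected for gene length. Dividing by each library's step recovered whole reads for at least 99.994% of values (within 0.1), 9375095 to 21809166 per library. Intervals on fold changes come from the spread between libraries.

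Genes with a mean of at least 10 were tested with limma 3.58.1 (trend and robust, R 4.3.3) on log2(value + 1), with 1 mean per group over 12 libraries. This scale understates the change of low genes. The Benjamini-Hochberg adjustment ran over 12631 genes. Alternatives were edgeR 4.0.16 and DESeq2 1.42.0 on recovered reads, other pseudocounts, filters and scalings, the 6 libraries of day 21 alone, and leaving out each library. Positions, exon lengths and shared 50-base stretches come from GENCODE M21, with 15892 identifiers matched, and promoters from RefSeq. The script was tested on simulated data. The members, gene lists and tests were chosen with earlier results of these data known. Every member is accounted for. Values in each library of day 21 are given for called members and for single-gene families with a mean of at least 1000. They are also given for the member with the highest mean count of each subfamily of more than 1 gene. Day 4 values or ranges are given for only some of these.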

Additional observations from a re-analysis of the deposited data

How the results depend on the processing

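Of the 16 calls at day 21, 10 were made in each of the 12 fits that left out 1 library and 9 in all 22 alternatives, and none of the 16 changed sign. Only the 6 libraries of day 21 gave 9 calls, and leaving out 1 library gave 10 to 21, the highest without tumour replicate 9a. The count was 14 with edgeR, 19 with DESeq2 and 19 under total scaling. For the difference between days DESeq2 gave 6 calls and the fits without 1 library 0 to 9. In the list of 43 serving genes at day 21, the 6 libraries alone gave 1 call (Nr0b2), DESeq2 gave 5, and leaving out 1 library 0 to 2. Leaving out 1 library moved the log2 fold change of Cyp2c70 between -0.42 and 0.11 and that of Cyp2d40 between -0.05 and 0.48. The causes were not tested. Another 8 members were called in some alternative, of which Cyp2a12, Cyp2c69, Cyp3a16 and Cyp3a44 only without tumour replicate 9a. Total scaling shifted the median of all genes between PBS days to 0.18. No paired analysis was possible because no replicate number is shared between groups.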
